A study of Homo sapiens and Mus musculus with 24 samples.

Results

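The 39 genes described here are the glucose and lactate transporters, the enzymes of glycolysis and a set of genes that hypoxia-inducible factor (HIF) is known to activate, together with the HIF alpha subunits and the prolyl hydroxylases that control them. They were chosen by name, with earlier results of these data known. Each gene's value is the sum of the estimated read pairs of all transcripts that the tables list under its symbol. All 39 were found among the 56981 symbols listed for the human cells, and all 39 passed the filter on low counts that left 21055 genes for testing. By role they comprise 4 transporters, 9 enzymes of upper glycolysis, 3 PFKFB regulators, 8 enzymes of lower glycolysis and lactate formation, 4 HIF subunits or prolyl hydroxylases and 11 other HIF targets.

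The cells were MCF10A, a human mammary epithelial line that does not form tumours, bought as an isogenic pair of a parental line and a line with 1 knocked-in copy of PIK3CA H1047R, a hotspot mutation that activates PI3K alpha (heterozygous). Cells of each line were given DMSO, the solvent, or 1 uM alpelisib (BYL719), which inhibits PI3K alpha, for 4 h, which gives 4 groups of 3 RNA sequencing libraries. The second line is called the knock-in line here. The sources used here do not say whether the libraries of a group came from separate cultures or whether the knock-in line is 1 clone, so the p-values measure the spread between these libraries, and clone and genotype cannot be told apart. The series also holds 12 libraries of mouse fibroblasts, which were not used here. Libraries held 120177015 to 162755457 estimated pairs. Library 2 of the knock-in DMSO group stood apart from the other 2 of its group: the chi-square per degree of freedom between them was 145 to 167, against 4.58 to 52 within every other pair of a group. Calls of the 39 genes that change without it are given beside the results. Summed over 10 epithelial and basal markers the level was 5069 to 5485 TPM in the parental libraries and 4741 to 5046 TPM in the knock-in libraries, without overlap. The endothelial sum did not overlap either, at 0.169 to 0.22 TPM in parental and 0.283 to 0.568 TPM in knock-in libraries. Both sums thus move with the line, and their part in the differences between the lines was not tested. The haematopoietic and adipocyte sums were at most 0.507 TPM. Summed over the fibroblast markers it was 7.99 to 13.6 TPM. PIK3CA itself read 55.9, 59.2 and 58.3 CPM (the gene's pairs scaled to the total of the library) in parental DMSO, 66.7, 68.3 and 72.1 in parental BYL719, 44.3, 33.4 and 42.7 in knock-in DMSO and 72.2, 69.9 and 69.3 in knock-in BYL719. The mutant allele was not analysed here. In RNA from whole cultures, fewer cells that express a gene and less RNA per cell cannot be told apart.

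In glycolysis, glucose that enters through SLC2A transporters is phosphorylated and split, and its carbon leaves as pyruvate, which lactate dehydrogenase turns into lactate for export by SLC16A transporters. HIF is a dimer of an oxygen-regulated alpha subunit (HIF1A or EPAS1) and ARNT. With oxygen present, prolyl hydroxylases of the EGLN family mark the alpha subunit for destruction, and without it the dimer binds hypoxia response elements and activates many genes of glycolysis, acid handling and vessel growth. PI3K signalling acts on both systems, through AKT and mTORC1.

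The binding core of HIF is the letters ACGTG or, less often, GCGTG. Both were searched for on both strands in the 250 bases before the start of each gene in the promoter table of RefSeq, build GRCh38.p14, where 34 of the 39 genes had an entry. Of these 34, 28 (82.4%) held at least 1 of the cores, against 47.4% of the 27305 genes with an entry, and 19 (55.9%) held the first core, against 21.7%. A match is a run of letters and not a measured binding site. Many of the 39 were picked as known HIF targets, and the background was not matched for base composition. The excess over all genes is therefore not a test of control by HIF. The promoters of 4 genes that the results return to are shown, chosen after their values were seen: CA9 and BNIP3 were higher in the knock-in line, P4HA1 was higher with BYL719 in both lines, and KDM3A had the largest log2 change with BYL719 of the 39 in the knock-in line. Each runs 5′ to 3′ on the gene's strand and ends at the base before the start in that table, and capitals mark the cores and their reverse complements.
CA9 (chr9:35673678-35673927, plus strand): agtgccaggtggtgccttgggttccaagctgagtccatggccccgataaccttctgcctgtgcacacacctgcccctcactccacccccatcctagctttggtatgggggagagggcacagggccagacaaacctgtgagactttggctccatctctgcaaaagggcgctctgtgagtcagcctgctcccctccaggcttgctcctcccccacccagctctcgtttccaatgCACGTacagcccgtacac
BNIP3 (chr10:131981924-131982173, minus strand): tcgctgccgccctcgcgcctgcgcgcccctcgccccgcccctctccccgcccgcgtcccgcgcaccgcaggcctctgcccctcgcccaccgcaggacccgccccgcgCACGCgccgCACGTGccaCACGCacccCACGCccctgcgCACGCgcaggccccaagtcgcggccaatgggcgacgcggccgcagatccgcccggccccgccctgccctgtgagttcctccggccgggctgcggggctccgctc
P4HA1 (chr10:73096867-73097116, minus strand): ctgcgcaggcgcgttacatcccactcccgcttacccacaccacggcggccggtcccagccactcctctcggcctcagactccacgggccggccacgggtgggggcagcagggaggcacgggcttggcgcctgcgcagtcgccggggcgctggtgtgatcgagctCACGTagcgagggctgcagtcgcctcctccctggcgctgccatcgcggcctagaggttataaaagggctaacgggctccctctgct
KDM3A (chr2:86441121-86441370, plus strand): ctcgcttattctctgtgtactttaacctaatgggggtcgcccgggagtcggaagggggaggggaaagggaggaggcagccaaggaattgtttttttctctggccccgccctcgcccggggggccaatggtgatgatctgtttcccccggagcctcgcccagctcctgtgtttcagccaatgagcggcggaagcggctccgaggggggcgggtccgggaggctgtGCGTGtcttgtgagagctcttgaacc
CA9 held 1 match, 14 to 18 bases before its start, and KDM3A held 1, 22 to 26 bases before its start. BNIP3 held 6 matches between 100 and 143 bases before its start, and P4HA1 held 1, 82 to 86 bases before its start. These starts lie inside the genes as GENCODE 29 draws them: the last 72 bases shown for CA9, 90 for BNIP3, 108 for P4HA1 and all 250 for KDM3A fall within its gene limits. KDM3A has 2 entries, of which the one listed first is shown.

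Within most families 1 member carried most of the RNA per transcript length, on the TPM scale. In parental DMSO cells the glyceraldehyde-3-phosphate dehydrogenase gene GAPDH had the highest level of the 39 genes at 4220 ± 85.4 TPM (SD, n = 3). ENO1, the main enolase, followed at 2430 ± 32.2 TPM, then LDHA, the lactate dehydrogenase subunit that favours lactate, at 2113 ± 80.2 TPM. PKM, pyruvate kinase, was at 1965 ± 42.8 TPM, below LDHA in each of the 3 libraries, and ALDOA, the main aldolase, was at 1707 ± 51.9 TPM. The second members of these families were far lower: ENO2, the neuronal enolase, was at 4.03 ± 0.0954 TPM and ALDOC, the brain aldolase, at 21 ± 0.81 TPM. SLC2A1 (GLUT1) was the main glucose transporter at 121 ± 6.93 TPM, while SLC2A3 (GLUT3) was at 0.177 ± 0.0178 TPM. HK1, the housekeeping hexokinase, stood at 108 ± 1.43 TPM against 7.97 ± 0.537 TPM for HK2, the growth-regulated one. Among the phosphofructokinases the platelet form PFKP was highest at 221 ± 6.22 TPM. The muscle form PFKM and liver form PFKL lay close together at 76.9 ± 3.17 and 73.8 ± 2.69 TPM, with PFKM above PFKL in each of the 3 libraries. CA9 was the lowest of the HIF targets at 1.71 ± 0.143 TPM.

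**Figure D1:**
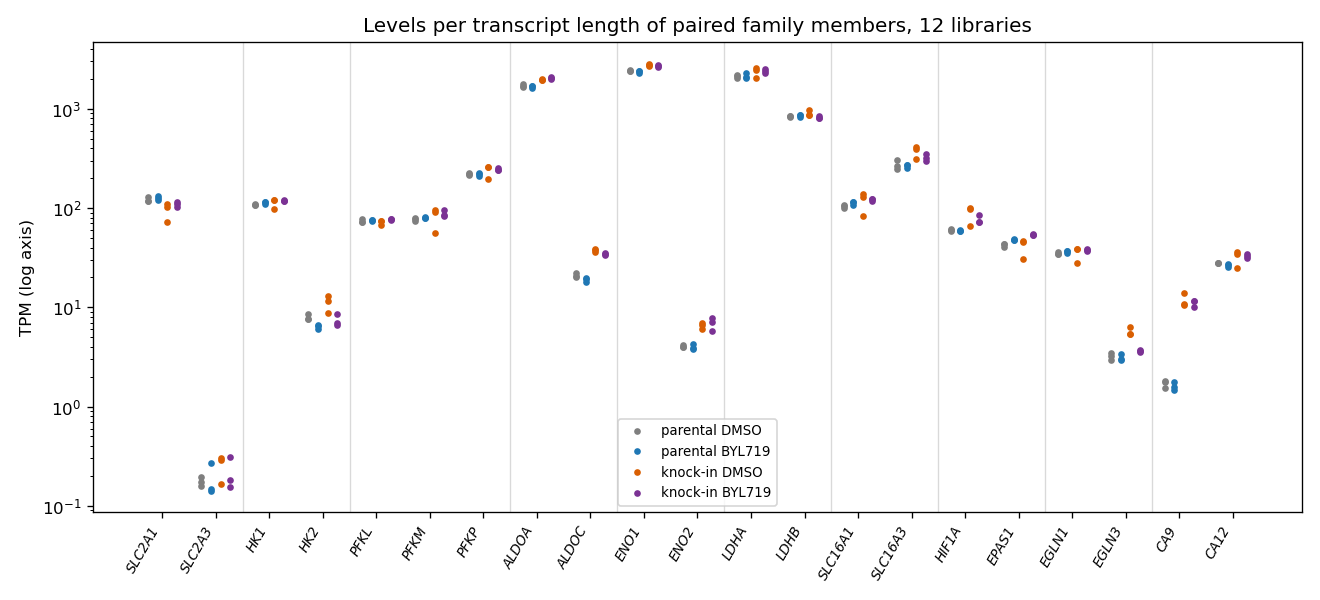
TPM (log axis) of 21 members, set beside others of their family between the grey lines; each point is 1 library, coloured by group. GAPDH, PKM and other single members are not drawn. The level of ALDOC, ENO2, EGLN3 and CA9 in knock-in DMSO lies above that in parental DMSO in all 3 libraries, while SLC2A3 stays at or under 0.307 TPM throughout.

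The first question was how these genes differ between the knock-in and parental lines in cells given DMSO. In DMSO, 25 of the 39 genes were higher in the knock-in line than in the parental line and 3 were lower, by edgeR at an adjusted p under 0.05. Of all genes tested 34.3% were called, 17% as higher and 17.3% as lower. This background was not matched to the 39 genes for level of expression, here or in the comparisons below. The median log2 fold change of the 39 genes was 0.25, against 0.0049 over all genes tested. The genes that were higher include 6 of 9 upper glycolytic enzymes, 7 of 8 enzymes of lower glycolysis and lactate formation and 7 of 11 other HIF targets. The 3 lower ones were SLC2A1, NDRG1 and KDM3A. Most of the differences were small, and a few were not: CA9 was 7.51-fold higher.

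CA9, a membrane carbonic anhydrase that acidifies the cell surface and a widely used hypoxia marker, lies at chr9:35673856-35681159 (GRCh38). It read 1.71, 1.8 and 1.61 CPM in parental DMSO and 10.9, 15.9 and 10.8 CPM in knock-in DMSO. Every knock-in library was far above every parental one, and library 2 was the highest of them (log2 fold change 2.91, SE 0.15, adjusted p = 2.64e-08). Without that library it was called too (log2 fold change 2.68, adjusted p = 5.69e-13). ANGPTL4, a secreted inhibitor of lipoprotein lipase, read 31.9, 25 and 24.7 CPM in parental and 41.9, 69 and 63.1 CPM in knock-in cells. Its 3 knock-in libraries were spread widely but did not overlap the parental ones (log2 fold change 1.12, SE 0.23, adjusted p = 0.00279). BNIP3, a mitochondrial receptor for autophagy, read 71.3, 74.9 and 72.9 CPM in parental and 109.9, 134 and 117 CPM in knock-in cells, again without overlap (log2 fold change 0.75, SE 0.068, adjusted p = 4.06e-06). VEGFA, the vascular growth factor, read 69.9, 63.9 and 52.7 CPM in parental and 88.2, 86.3 and 106 CPM in knock-in cells and did not overlap either (log2 fold change 0.61, SE 0.093, adjusted p = 0.000271).

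The other HIF targets were divided. P4HA1, a catalytic subunit of the prolyl 4-hydroxylase that matures collagen, read 58.4, 59 and 58.7 CPM in parental and 77.9, 81.8 and 79.2 CPM in knock-in cells. Its groups did not overlap (log2 fold change 0.47, SE 0.045, adjusted p = 6.92e-06). Its relative P4HA2 was higher by a log2 of 0.16 and the carbonic anhydrase gene CA12 by 0.24. NDRG1, a stress-induced gene known as a suppressor of metastasis, was lower, at 172, 177 and 181 CPM in knock-in against 209.6, 203 and 204 CPM in parental cells (log2 fold change -0.19, SE 0.045, adjusted p = 0.00571). KDM3A, a histone H3 lysine 9 demethylase, was lower too, at 31.8, 22.8 and 28.8 against 33.6, 33.9 and 34.3 CPM (log2 fold change -0.26, SE 0.088, adjusted p = 0.037). Library 2 of the knock-in group was the lowest of the KDM3A values, and without it the difference was smaller (log2 fold change -0.15, adjusted p = 0.0276). The KDM3A call held in 12 of 21 alternative analyses and was lost on leaving out any parental DMSO library, parental BYL719 library 1 or 2, knock-in DMSO library 3 or knock-in BYL719 library 3 (adjusted p = 0.0505 to 0.106). The P4HA2 call was lost without parental DMSO library 2 (adjusted p = 0.0547). ADM, which encodes the vasodilator adrenomedullin, and ANKRD37, a small HIF-induced gene, had overlapping groups and passed no test (log2 fold changes 0.17 and 0.28, adjusted p = 0.195 and 0.088). ANKRD37 was called higher without knock-in DMSO library 3 (adjusted p = 0.00582).

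**Figure D2:**
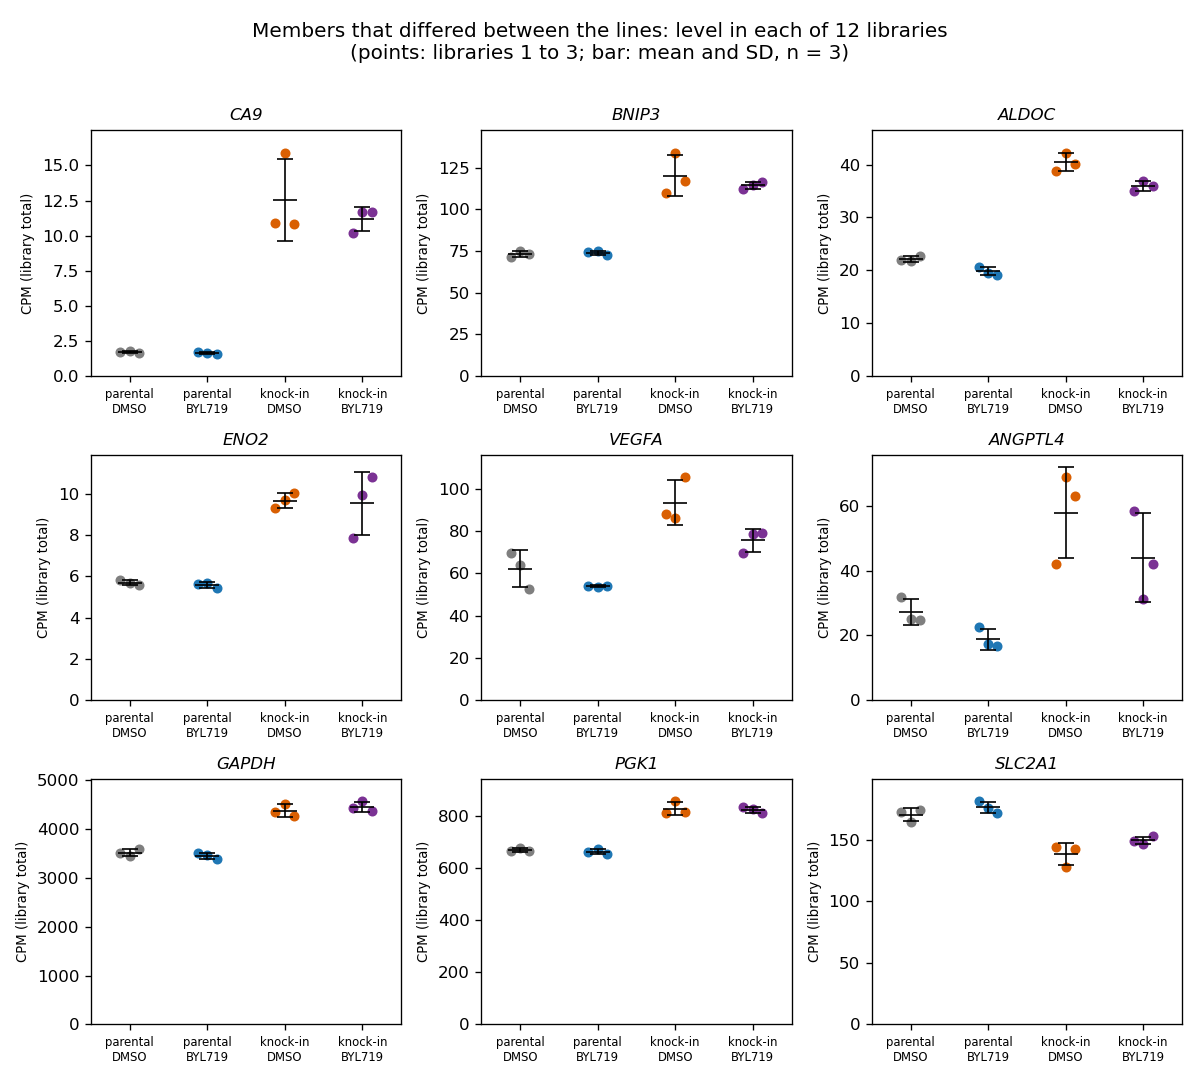
CPM by library total of 9 members in the 12 libraries, by group; points are libraries 1 to 3 from left to right, and the bar is the mean with the SD (n = 3). All knock-in DMSO libraries lie above all parental DMSO libraries except for SLC2A1, where all lie below.

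Enzymes of lower glycolysis were higher in knock-in DMSO by small amounts. GAPDH read 3512, 3438 and 3582 CPM in parental and 4347, 4513 and 4263 CPM in knock-in cells (log2 fold change 0.35, SE 0.047, adjusted p = 0.000117). PGK1, phosphoglycerate kinase, the first step that yields ATP, read 665, 677 and 666 CPM in parental and 811, 856 and 817 CPM in knock-in cells (log2 fold change 0.33, SE 0.042, adjusted p = 6.72e-05). In both genes every knock-in library was above every parental one. ENO2 differed by more, at 5.82, 5.68 and 5.58 CPM in parental and 9.3, 9.7 and 10 CPM in knock-in cells (log2 fold change 0.79, SE 0.095, adjusted p = 4.11e-05), although at these levels it remained a minor enolase. ENO1, LDHA, PKM and PGAM1 (phosphoglycerate mutase) were higher by a log2 of 0.25, 0.21, 0.19 and 0.12. The PGAM1 call held in 10 of 21 alternative analyses and was lost without any 1 of the parental DMSO libraries, parental BYL719 library 1 or 2 or knock-in BYL719 library 2 or 3 (adjusted p = 0.0518 to 0.107). The PKM call was lost without parental DMSO library 1 (adjusted p = 0.0511). LDHB, the subunit that favours pyruvate, read 700.2, 714 and 699 CPM in parental and 709, 882 and 721 CPM in knock-in cells and did not pass (adjusted p = 0.129). Its groups overlapped, and library 2 alone was high. It was called higher without knock-in DMSO library 1 (adjusted p = 0.0399).

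In upper glycolysis the largest difference was in ALDOC, which read 21.9, 21.7 and 22.8 CPM in parental and 38.9, 42.3 and 40.2 CPM in knock-in cells (log2 fold change 0.90, SE 0.054, adjusted p = 9.99e-08). The 2 groups were far apart and each was tight. ALDOA was higher by 0.27, TPI1 (triosephosphate isomerase) by 0.32, PFKM by 0.21 and GPI (glucose-6-phosphate isomerase) by 0.17 on the log2 scale. TPI1 read 703, 959 and 729 CPM in the knock-in libraries, where library 2 was highest, and 629.8, 658 and 671 CPM in the parental ones, and its call was lost without parental DMSO library 1 or 2 (adjusted p = 0.0965 and 0.0726). Without knock-in DMSO library 2 the TPI1 difference was smaller (log2 fold change 0.15, adjusted p = 0.00473). With effective transcript lengths as offsets PFKM, GPI, SLC16A1 and KDM3A were not called (log2 0.11, 0.10, 0.21 and -0.29, adjusted p = 0.485, 0.325, 0.131 and 0.0548). With only the 2 DMSO groups in the fit, ALDOA, TPI1, GPI, PGAM1, PKM, P4HA2 and KDM3A were no longer called (adjusted p = 0.0555 to 0.176). HK2 read 36.9, 32.5 and 32.6 CPM in parental and 48.1, 41 and 53.9 CPM in knock-in cells without overlap (log2 fold change 0.51, SE 0.099, adjusted p = 0.00164), while HK1 did not pass (log2 0.10, adjusted p = 0.0532). The ratio of HK1 to HK2 on the TPM scale was 12.6, 13.9 and 14.1 in parental DMSO and 10.3, 11.2 and 9.26 in knock-in DMSO. These ratios did not overlap (2-sided exact permutation test, p = 0.1, the smallest that 3 against 3 allows). PFKL and PFKP did not pass the test between the lines in DMSO (log2 0.02 and 0.14, adjusted p = 0.777 and 0.0714). Without knock-in DMSO library 2 both HK1 and PFKP were called higher (log2 0.13 and 0.20, adjusted p = 0.00126 and 8.28e-05). Both were also called without knock-in BYL719 library 1 (adjusted p = 0.0342 and 0.0498) and by DESeq2 (adjusted p = 0.00494 and 0.0469). PFKFB3, which makes the fructose-2,6-bisphosphate that activates phosphofructokinase, was higher at 48.7, 43.5 and 52 against 39.2, 34.7 and 35.5 CPM (log2 fold change 0.42, SE 0.08, adjusted p = 0.00142), and its relatives PFKFB2 and PFKFB4 did not pass (log2 -0.12 and -0.08).

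Transporters differed in both directions. SLC2A1 was lower in knock-in cells, at 145, 128 and 143 CPM against 172, 165 and 175 CPM in parental cells (log2 fold change -0.27, SE 0.048, adjusted p = 0.000814), with no overlap, and the call held in 21 of 21 alternative analyses. SLC16A3 (MCT4), which exports lactate, was higher, at 492, 469 and 486 against 378, 344 and 327 CPM (log2 fold change 0.49, SE 0.058, adjusted p = 3.59e-05). SLC16A1 (MCT1), which carries lactate both ways, was higher by a log2 of 0.28. SLC2A3 read at most 0.307 TPM in every library, its pseudogene copies held 2.66% to 18.5% as many pairs as the gene itself, and it did not pass (log2 0.44, adjusted p = 0.171). As a whole, 17 enzymes from hexokinase to lactate dehydrogenase took 1.71, 1.7 and 1.72 percent of all pairs in parental DMSO and 1.95, 2.08 and 1.95 percent in knock-in DMSO. Every knock-in library was higher (2-sided exact permutation test, p = 0.1, the smallest possible), and library 2 was the highest.

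Of the HIF pathway's own parts, HIF1A and EGLN3 were higher in the knock-in line. HIF1A (GRCh38 chr14:61695513-61748259), the subunit that drives most glycolytic targets, read 157, 157 and 154 CPM in parental and 255, 193 and 248 CPM in knock-in DMSO (log2 fold change 0.60, SE 0.079, adjusted p = 9.96e-05). The groups did not overlap, and library 2 was the lowest knock-in value. EGLN3, the prolyl hydroxylase that is itself a HIF target, read 5.51, 6.06 and 6.07 CPM in parental and 9.9, 10.3 and 9.7 CPM in knock-in cells, also without overlap (log2 fold change 0.79, SE 0.065, adjusted p = 1.63e-06). EPAS1 (HIF-2 alpha) read 156, 150.3 and 160.5 CPM in parental and 166, 121 and 163 CPM in knock-in cells and did not pass (log2 fold change -0.03, SE 0.085, adjusted p = 0.83). Its groups overlapped, library 2 being the lowest of all, and without that library EPAS1 was called higher (log2 fold change 0.09, adjusted p = 0.043). EGLN1, the main oxygen sensor, did not pass (log2 0.07, adjusted p = 0.4). On the TPM scale the ratio of HIF1A to EPAS1 was 1.42, 1.47 and 1.34 in parental DMSO and 2.18, 2.17 and 2.1 in knock-in DMSO. Here library 2 lay between the other libraries of its group, and the parental and knock-in values did not overlap (2-sided exact permutation test, p = 0.1, the smallest possible).

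The lines were compared under BYL719 as well, in the other 6 libraries. Of the 39 genes, 21 were higher in the knock-in line and 2 were lower, against 22.4% of all genes called, 11.5% as higher and 10.9% as lower. CA9 read 1.72, 1.63 and 1.56 CPM in parental BYL719 and 10.2, 11.7 and 11.7 CPM in knock-in BYL719 (log2 fold change 2.80, SE 0.15, adjusted p = 4.41e-08). ALDOC read 20.6, 19.6 and 19.2 CPM in parental and 35, 37 and 36 CPM in knock-in cells (log2 fold change 0.89, SE 0.054, adjusted p = 1.21e-07). BNIP3 read 74.1, 75.1 and 72.7 CPM in parental and 112, 115 and 116 CPM in knock-in cells (log2 fold change 0.65, SE 0.068, adjusted p = 1.48e-05). In all 3 genes the lines stayed apart with no overlap. ENO2, ANGPTL4, GAPDH, PGK1 and VEGFA were higher by a log2 of 0.80, 1.25, 0.40, 0.34 and 0.52, and SLC2A1 was lower (log2 -0.21). The SLC2A1 call ended when effective transcript lengths were used as offsets or non-coding transcripts were left out (adjusted p = 0.135 and 0.0992). Other calls were weaker: those of PFKM, PFKP and GPI held in 11, 13 and 15 of 21 alternative analyses. SLC16A1 and EGLN3 were also lost with effective lengths as offsets. ENO1 and PKM were lost without knock-in BYL719 library 1 and without parental BYL719 library 3. PFKFB4 was the other lower gene: it read 16.5, 16.9 and 16.4 CPM in parental and 11.7, 12.7 and 13.4 CPM in knock-in BYL719 (log2 fold change -0.37, SE 0.059, adjusted p = 0.000552). PFKFB3 and HK2, both called in DMSO, did not pass between the lines under BYL719 (log2 0.21 and 0.24, adjusted p = 0.0902 and 0.118). Without library 2 of knock-in DMSO, which is in neither group compared, SLC2A3, HK1, TPI1, PGAM1, EPAS1 and KDM3A were called higher as well (log2 0.69, 0.08, 0.25, 0.10, 0.20 and 0.24, adjusted p = 1.59e-05 to 0.0287). KDM3A was also called without knock-in DMSO library 1 (adjusted p = 0.0209) and SLC2A3 without knock-in BYL719 library 3 (adjusted p = 0.0291).

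**Figure D3:**
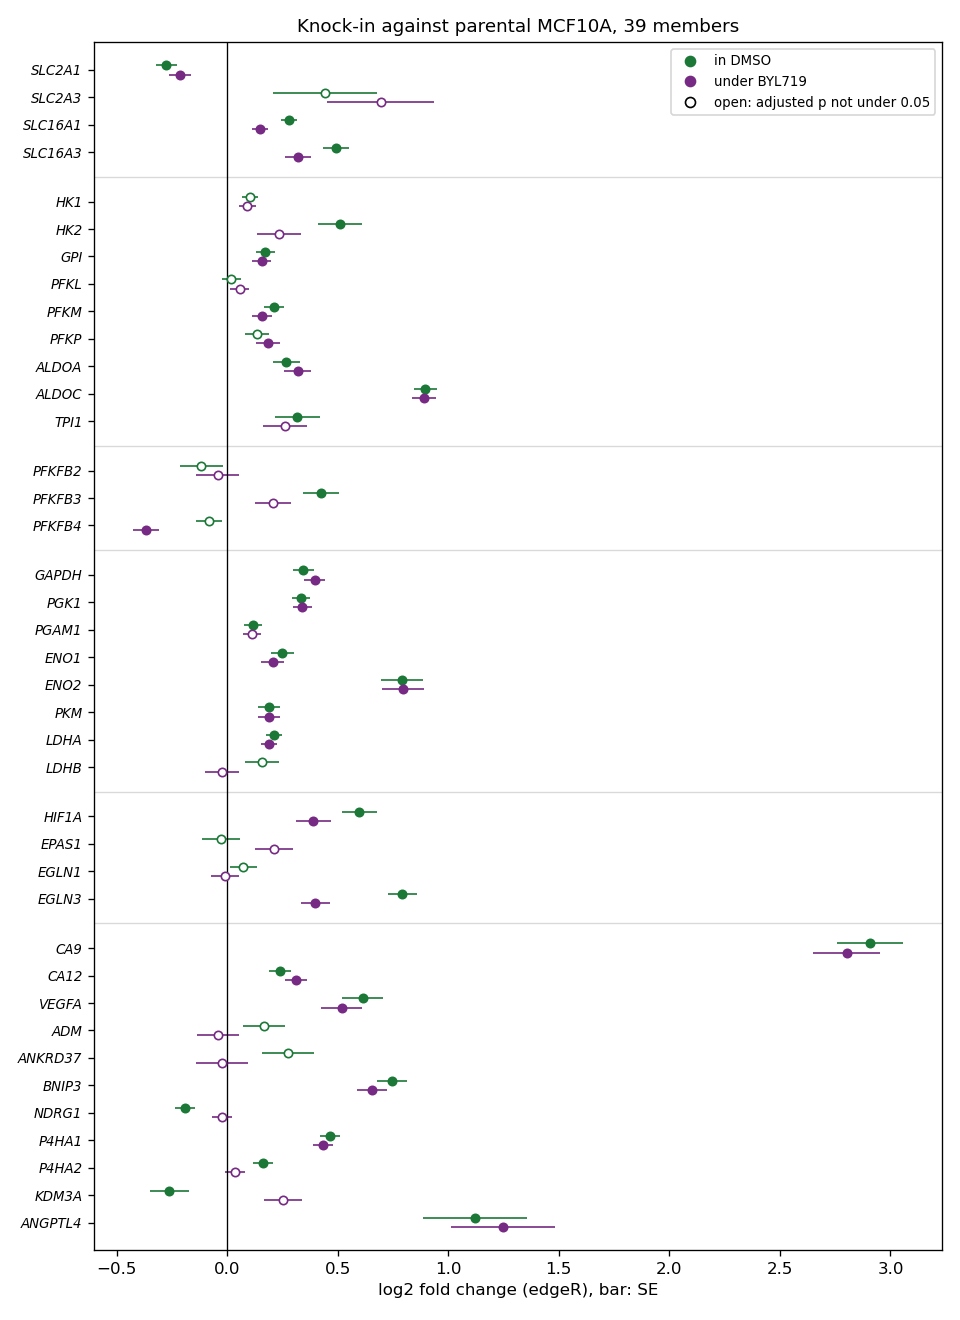
Log2 fold change of knock-in against parental cells for the 39 members, in DMSO (green) and under BYL719 (purple), with the SE of the fit as bars; grey lines separate transporters, upper glycolysis, PFKFB regulators, lower glycolysis and lactate, HIF subunits and prolyl hydroxylases, and other HIF targets. Filled points had an adjusted p under 0.05; CA9 lies near 2.9 in DMSO and most other members between 0 and 1.

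The next question was what 4 h of PI3K alpha inhibition does to these genes in each line. In parental cells 1 of the 39 genes was called, against 1.42% of all genes (0.831% as higher and 0.589% as lower). It was P4HA1, which rose from 58.4, 59 and 58.7 CPM in DMSO to 73.7, 76.8 and 73.7 CPM with BYL719 (log2 fold change 0.34, SE 0.045, adjusted p = 0.00317). The groups did not overlap, and the call held in 21 of 21 alternative analyses. In knock-in cells P4HA1 rose as well, to 95.9, 97.5 and 104 CPM (log2 fold change 0.31, SE 0.045, adjusted p = 0.000328), so its log2 changes in the 2 lines were side by side at 0.34 and 0.31. In the main fit all 4 groups share 1 estimate of the spread. The count in parental cells changed with the libraries fitted, and the reason was not tested. It was 7 without library 2 of the knock-in DMSO group, with EPAS1, NDRG1 and KDM3A also called higher and ALDOC, PGAM1 and EGLN3 called lower, and it was 10 when the parental libraries were fitted alone.

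In knock-in cells BYL719 lowered 9 of the 39 genes and raised 4, against 28.3% of all genes called (13.2% as lower and 15.1% as higher). The total of 13 of 39 is close to that background. The genes that fell were SLC16A1, SLC16A3, HK2, ALDOC, PFKFB3, PFKFB4, HIF1A, EGLN3 and VEGFA, and those that rose were EPAS1, NDRG1, P4HA1 and KDM3A. By edgeR 0 of the 8 enzymes of lower glycolysis and lactate formation were called (2 had an unadjusted p under 0.05, and DESeq2 called 2), with log2 fold changes of -0.18 to 0.02. This count depended on the libraries: edgeR called PGAM1 lower without knock-in DMSO library 2 (adjusted p = 0.0406), and LDHB lower without knock-in DMSO library 1 or 3 (adjusted p = 0.0289 and 0.0449). In upper glycolysis PFKM was also called lower without library 2 (log2 -0.11, adjusted p = 0.0082). ANKRD37 was called lower without knock-in DMSO library 3 (adjusted p = 0.017).

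HK2 fell from 48.1, 41 and 53.9 CPM in knock-in DMSO to 35.4, 28.1 and 29.5 CPM with BYL719 (log2 fold change -0.62, SE 0.099, adjusted p = 0.000602). With the inhibitor it lay near the parental DMSO level of 36.9, 32.5 and 32.6 CPM. In parental cells HK2 read 27.8, 26.9 and 25.8 CPM with BYL719, below its DMSO values, and did not pass (log2 fold change -0.35, SE 0.099, adjusted p = 0.128). It was called lower there by DESeq2 and when the parental libraries were fitted alone. The difference between its changes in the 2 lines did not pass by edgeR (log2 -0.27, adjusted p = 0.355). In knock-in cells PFKFB3 fell from 48.7, 43.5 and 52 to 40.8, 34.3 and 35.2 CPM (log2 fold change -0.39, SE 0.08, adjusted p = 0.00335). There PFKFB4 fell from 16.2, 16.5 and 16.5 to 11.7, 12.7 and 13.4 CPM (log2 fold change -0.39, SE 0.059, adjusted p = 0.000456). Neither gene's groups overlapped. In parental cells both were also lower with BYL719 without overlap, but did not pass (log2 -0.17 and -0.10, adjusted p = 0.421 and 0.576). PFKFB3 was called lower there when the parental libraries were fitted alone. The difference between the lines passed for neither by edgeR (adjusted p = 0.367 and 0.0982), and DESeq2 called it for PFKFB4. In knock-in cells SLC16A3 fell from 492, 469 and 486 to 418, 378 and 405 CPM (log2 fold change -0.27, SE 0.058, adjusted p = 0.0038). SLC16A1 fell slightly (log2 -0.14), and this call ended when effective transcript lengths were used as offsets (log2 0.0068) and without knock-in BYL719 library 2 (adjusted p = 0.0516). ALDOC had a log2 fold change of -0.17, a call lost without knock-in BYL719 library 3 (adjusted p = 0.0748), and VEGFA one of -0.31. VEGFA read 69.5, 78.6 and 79.1 CPM with BYL719 against 88.2, 86.3 and 106 CPM in DMSO, and the call held in 16 of 21 alternative analyses. It was lost without knock-in DMSO library 3 or knock-in BYL719 library 1 or 2 (adjusted p = 0.0525 to 0.0967), and also with effective transcript lengths as offsets.

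**Figure D4:**
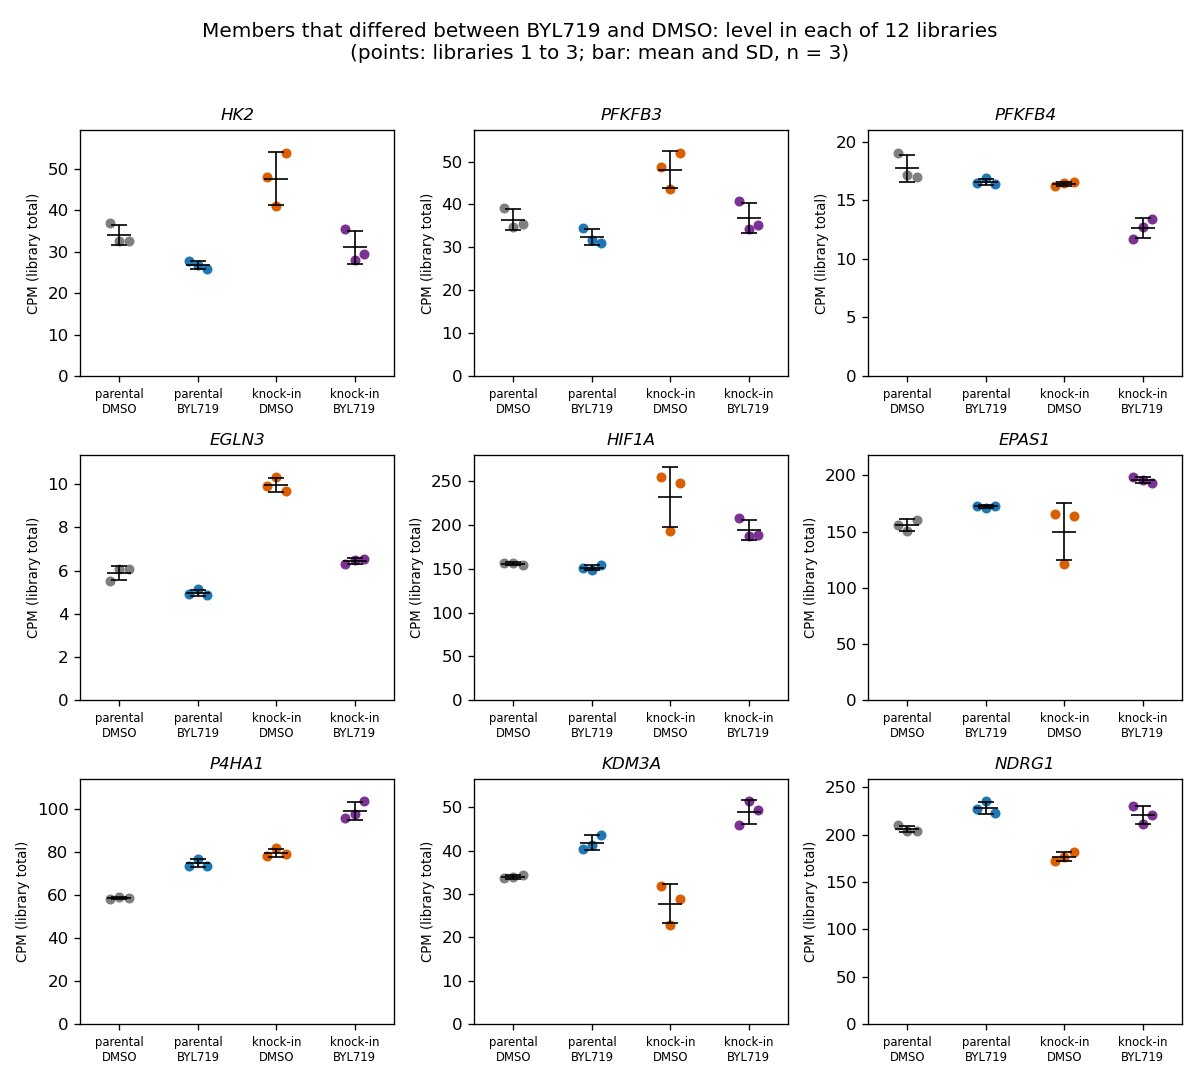
CPM by library total of 9 members that were called between BYL719 and DMSO in the knock-in line, by group; points are libraries 1 to 3 from left to right, and the bar is the mean with the SD (n = 3). HK2, PFKFB3, PFKFB4 and EGLN3 are lower in all knock-in BYL719 libraries than in all knock-in DMSO libraries, and EPAS1, P4HA1, KDM3A and NDRG1 are higher; the HIF1A groups overlap.

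The HIF subunits moved in opposite directions in knock-in cells. HIF1A read 255, 193 and 248 CPM in DMSO and 208, 187 and 189 CPM with BYL719 (log2 fold change -0.25, SE 0.079, adjusted p = 0.0309). The groups overlapped through library 2 of the DMSO group, and without it the fall was larger (log2 fold change -0.37, adjusted p = 8.16e-06). The HIF1A call held in 15 of 21 alternative analyses and was lost on leaving out knock-in BYL719 library 2 or 3 or knock-in DMSO library 1 or 3 (adjusted p = 0.0928 to 0.11). It was also lost with effective transcript lengths as offsets. EPAS1 rose from 166, 121 and 163 to 198, 196 and 193 CPM with no overlap (log2 fold change 0.38, SE 0.086, adjusted p = 0.00559), less without library 2 (log2 fold change 0.24, adjusted p = 4.65e-05). With only the 2 knock-in groups in the fit, SLC16A1, ALDOC, HIF1A, EPAS1 and VEGFA were not called (adjusted p = 0.0604 to 0.158). On the TPM scale the ratio of HIF1A to EPAS1 in knock-in cells went from 2.18, 2.17 and 2.1 in DMSO to 1.52, 1.35 and 1.38 with BYL719, which overlaps the range of parental DMSO cells (1.42, 1.47 and 1.34). In parental cells it went to 1.23, 1.24 and 1.24. Within each line the ratios with and without BYL719 did not overlap (2-sided exact permutation test, p = 0.1 in each, the smallest possible).

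EGLN3 and KDM3A were the 2 members whose response to BYL719 differed between the lines, against 2.88% of all genes (2.09% with a higher and 0.798% with a lower response in the knock-in line). The test is the interaction, which is the log2 change in knock-in cells minus that in parental cells. EGLN3 read 9.9, 10.3 and 9.7 CPM in knock-in DMSO and 6.3, 6.51 and 6.55 CPM in knock-in BYL719 (log2 fold change -0.63, SE 0.065, adjusted p = 2.37e-05). In parental cells it read 5.51, 6.06 and 6.07 CPM in DMSO and 4.92, 5.14 and 4.89 CPM with BYL719 (log2 fold change -0.24, SE 0.066, adjusted p = 0.11). The difference of the changes was -0.39 (adjusted p = 0.0438). With BYL719 the knock-in line still lay above both parental groups.

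KDM3A read 31.8, 22.8 and 28.8 CPM in knock-in DMSO and 46, 51.3 and 49.3 CPM in knock-in BYL719 (log2 fold change 0.81, SE 0.088, adjusted p = 3.84e-05). In parental cells it read 33.6, 33.9 and 34.3 CPM in DMSO and 40.3, 41.4 and 43.7 CPM with BYL719 (log2 fold change 0.30, SE 0.088, adjusted p = 0.147). The groups did not overlap in either line. The difference of the changes was 0.51 (adjusted p = 0.0488). Both interaction calls lie near the threshold: the EGLN3 call held in 7 of 20 alternative analyses and the KDM3A call in 8 of 20. Both were lost on leaving out library 2 or 3 of knock-in BYL719, library 3 of knock-in DMSO or any 1 of the 6 parental libraries, and EGLN3 alone on leaving out library 1 of knock-in DMSO (adjusted p = 0.0538 to 0.138 over both genes). Without library 2 of knock-in DMSO both calls held (adjusted p = 0.0203 for EGLN3 and 0.00181 for KDM3A), and the changes of SLC16A1, PFKFB4 and HIF1A also differed between the lines.

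NDRG1 rose in knock-in cells. It read 172, 177 and 181 CPM in knock-in DMSO and 230.2, 211 and 220.2 CPM in knock-in BYL719 (log2 fold change 0.31, SE 0.045, adjusted p = 0.000283). With BYL719 it did not pass the test against parental cells given BYL719, which read 227, 235 and 223 CPM (log2 fold change -0.02, SE 0.045, adjusted p = 0.778). Parental cells given DMSO read 209.6, 203 and 204 CPM, below those values, and NDRG1 did not pass with BYL719 there. It was called there without library 2 of knock-in DMSO and when the parental libraries were fitted alone. The difference between its changes in the 2 lines did not pass. CA9, BNIP3 and ENO2, which were among those that differed most between the lines, did not pass the test with BYL719 in the knock-in line (log2 -0.17, -0.08 and -0.03, adjusted p = 0.371, 0.414 and 0.865). ANGPTL4 read 58.6, 31.2 and 42.2 CPM in knock-in BYL719, a wide spread that overlapped its DMSO values (log2 fold change -0.40, SE 0.23, adjusted p = 0.216), and it was called lower without knock-in BYL719 library 1 (adjusted p = 0.0394).

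**Figure D5:**
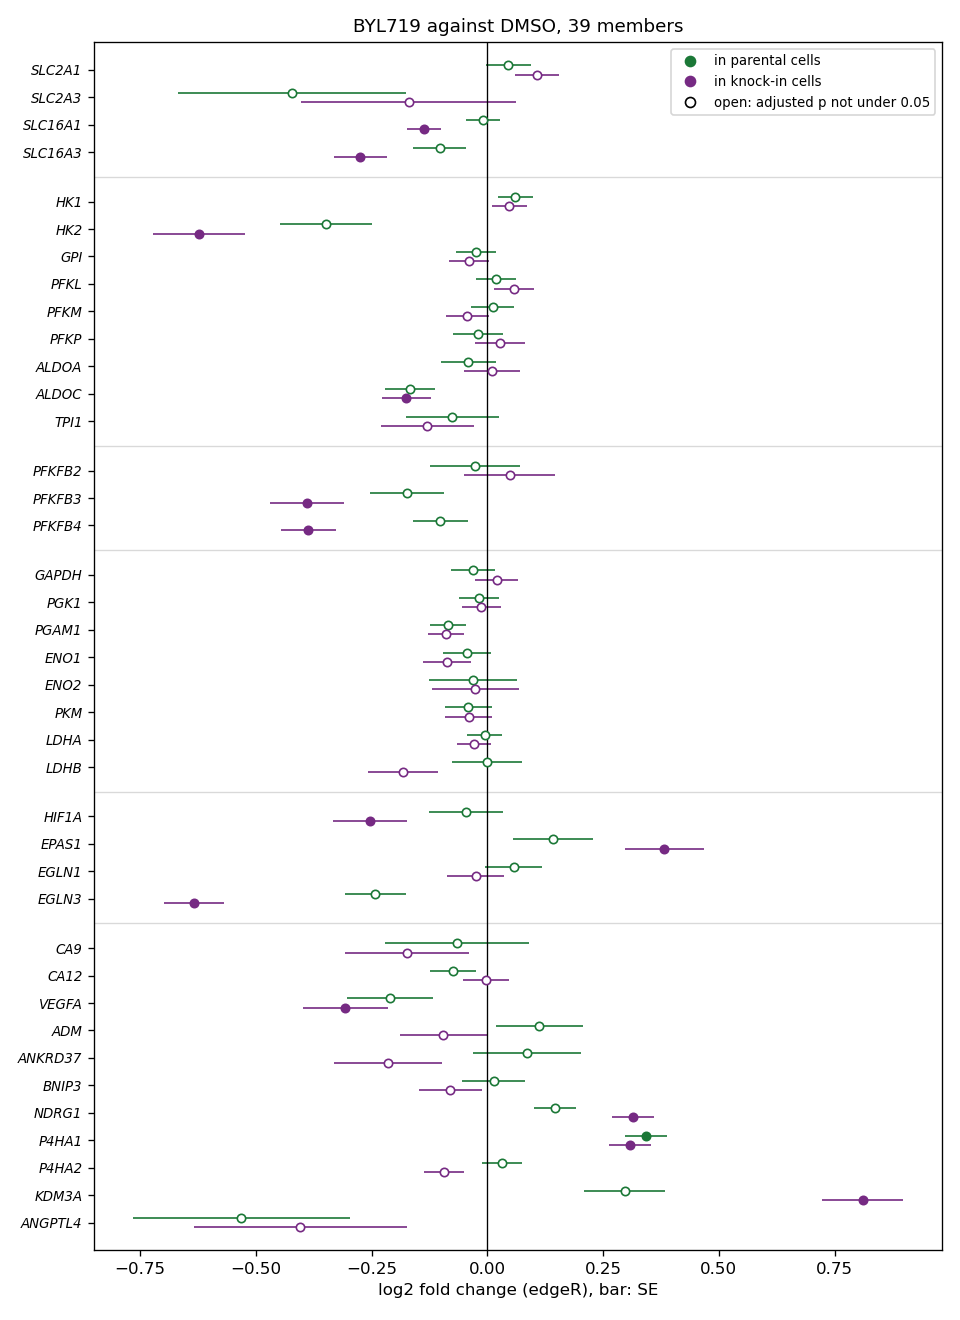
Log2 fold change of BYL719 against DMSO for the 39 members, in parental cells (green) and knock-in cells (purple), with the SE of the fit as bars; grey lines separate the roles in the same order as for the lines. Filled points had an adjusted p under 0.05: 1 member in parental cells and 13 in knock-in cells, with the enzymes of lower glycolysis between -0.18 and 0.02 in knock-in cells.

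PKM makes 2 enzymes from 1 gene by a choice between a pair of exons of equal length: exon 9 gives PKM1, typical of muscle and brain, and exon 10 gives PKM2, typical of dividing cells. The exons are shown because the transcript values rest on telling them apart, as taken from GENCODE 29 (GRCh38, both exonic and coding, minus strand); capitals mark the 62 of 167 positions at which they differ.
PKM exon 9 (chr15:72203022-72203188): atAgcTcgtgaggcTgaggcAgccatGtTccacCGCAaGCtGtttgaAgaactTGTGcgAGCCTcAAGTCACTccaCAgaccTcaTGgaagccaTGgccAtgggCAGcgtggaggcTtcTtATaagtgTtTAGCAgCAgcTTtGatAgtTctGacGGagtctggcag
PKM exon 10 (chr15:72202454-72202620): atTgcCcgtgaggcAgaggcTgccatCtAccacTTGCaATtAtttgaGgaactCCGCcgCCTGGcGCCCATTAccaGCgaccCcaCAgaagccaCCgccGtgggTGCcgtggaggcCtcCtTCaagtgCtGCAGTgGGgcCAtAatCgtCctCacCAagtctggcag
Of the 25 PKM transcripts in the tables, 6 hold the M1 exon and 4 the M2 exon. The main M2 transcript, PKM-202, made up 72% of the TPM of PKM on average over the 12 libraries. A short retained-intron transcript, PKM-208, made up 20.1%, and PKM-224, which is annotated as subject to nonsense-mediated decay, 3.12%. By estimated pairs, without division by length, these shares were 88.7%, 5.56% and 2.08%.

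Among PKM transcripts with either exon, those with the M1 exon made up 1.79, 1.72 and 1.61 percent of the TPM in parental DMSO and 2.36, 1.89 and 2.35 percent in knock-in DMSO. The M2 form thus dominated in every library, and the M1 share was slightly higher in each knock-in library (2-sided exact permutation test, p = 0.1, the smallest possible). With BYL719 it was 1.74, 1.79 and 1.87 percent in parental and 2.08, 2.21 and 2.25 percent in knock-in cells. Library 2 of knock-in DMSO had the lowest M1 share of its group and 80.4% of its PKM TPM in PKM-202. None of the 3 named transcripts was called in any of the 5 comparisons by edgeR at the transcript level, where 4.88% of transcripts were called between the lines in DMSO, 2.85% between them under BYL719, 0.0267% and 3.56% with BYL719 in parental and knock-in cells and 0.0748% for the interaction. Of these 3, PKM-202 alone had an unadjusted p under 0.05, between the lines in DMSO (adjusted p = 0.198), and the other 4 comparisons had 0 of the 3. Among all 25 PKM transcripts, 11 had an unadjusted p under 0.05 by edgeR between the lines in DMSO and 3 between them under BYL719. With BYL719 there were 4 in parental and 5 in knock-in cells, and 3 for the interaction. Of all 25, 2 were called higher in knock-in DMSO, the M1-exon transcript PKM-220 and PKM-221, which together made up less than 1% of PKM TPM. Salmon divided the pairs that these transcripts share, and its uncertainty is not part of the test.

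Genes of the same pathways outside the 39 were counted from 3 further lists, also chosen with earlier results of these data known. In each comparison described, at most 3 called genes with the largest change are named per list. Their counts are read against the share of all genes called in the same comparison, which was not matched for level of expression. Of 16 tested genes of glycolysis and transport, 6 were higher and 1 lower in knock-in DMSO (43.8%, against 34.3% of all genes called), led by HKDC1, a hexokinase-like enzyme (1.81), SLC2A12, a glucose transporter (-1.67), and TIGAR, a fructose-2,6-bisphosphatase (0.64, all log2). With BYL719 in knock-in cells 1 rose and 4 fell (31.2%, against 28.3% of all genes) in a comparison that shares the knock-in DMSO libraries, led by the same 3 genes (1.94 for SLC2A12, -0.89 for HKDC1 and -0.52 for TIGAR). In parental cells edgeR called 0 of the 16, against 1.42% of all genes, while 3 had an unadjusted p under 0.05 and DESeq2 called 1. These shares are near the background.

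Of 13 tested genes of the HIF machinery, 1 was higher and 3 lower in knock-in DMSO, a share of 30.8% that is near the 34.3% of all genes. ARNT2, an alternative partner of the alpha subunits, was lower (log2 -0.75), as were the coactivator CREBBP (-0.47) and CITED2, an inhibitor of HIF that competes for that coactivator (-0.36). The CREBBP value was -0.28 without knock-in DMSO library 2, and its call was lost without parental DMSO library 3 (adjusted p = 0.0602). CITED2 was the 1 gene of this list called with BYL719 in parental cells, where it rose by 0.50, and in knock-in cells it rose by 1.36 and led 4 that rose and 4 that fell (61.5%, against 28.3% of all genes). Of 34 tested further HIF targets, 17 were higher and 8 lower in knock-in DMSO (73.5%, against 34.3% of all genes). HMOX1, haem oxygenase, was higher by 1.89, LOX, the collagen cross-linking lysyl oxidase, by 1.68, and PPP1R3C, a glycogen-targeting phosphatase subunit, was lower (log2 -1.49), at no more than 0.277 CPM in any library. With BYL719 in knock-in cells 12 of these targets rose and 7 fell (55.9%, against 28.3%), led by the chemokine receptor CXCR4 (2.26), PPP1R3C (-1.69) and CCNG2, cyclin G2, which FOXO is also known to activate (1.34). The PPP1R3C call was lost without knock-in DMSO library 1 (adjusted p = 0.0579). In parental cells 4 rose and 1 fell (14.7%, against 1.42%), led by the transcriptional repressors BHLHE40 (-0.70) and BHLHE41 (0.61) and by CCNG2 (0.47). The calls of BHLHE40 and BHLHE41 in parental cells were lost without parental DMSO library 1 or 3 or parental BYL719 library 2 or 3, and that of BHLHE41 without parental DMSO library 2 too (adjusted p = 0.0557 to 0.164).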

How the data were processed

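The authors deposited 1 Salmon table per library with, per the file headers, an expected count (estimated read pairs), a TPM value (abundance per transcript length, scaled within the library) and an effective length for each of 207749 transcripts. Per the submitters' processing notes, the tools were Trim Galore 0.6.1, cutadapt, Salmon 1.2.1 and DESeq2 1.28.1, with build GRCh38 for human. Neither RNA selection nor strandedness was given in the sources used here, so antisense and overlapping genes cannot be separated.

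The deposited expected counts were summed to gene symbols and rounded. All 12 MCF10A libraries (120177015 to 162755457 pairs) were fitted together with edgeR 4.0.16 in R 4.3.3 (filterByExpr, TMM, robust quasi-likelihood, group means, 8 residual degrees of freedom). Tests were 2-sided, with Benjamini-Hochberg adjustment over the 21055 genes tested, and called at an adjusted p under 0.05. Adjusted p-values are from this test unless another tool is named, and the script was tested on simulated data. Printed CPM values are counts scaled to the library total, and ± is the SD over 3 libraries. Single derived values were compared by exact permutation, which with 3 against 3 cannot go below 0.1.

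All 39 genes were open to naming. Those with the largest changes or with calls that changed have their values printed by library. For each further list at most 3 called genes with the largest change are named per comparison described. Members and lists were chosen with earlier results of these data known. The 21 alternative analyses covered scaling, DESeq2 1.42.0, the filter, effective lengths, the groups fitted, a replicate block and leaving out each library. The sums of protein-coding transcripts alone and of genes with their pseudogene copies were added after seeing the data. Mouse libraries were left out because their transcripts carry no gene names here.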

Additional observations from a re-analysis of the deposited data

Results flagged for a closer look

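The response to BYL719 differed between the lines, by edgeR's interaction test, for 2 of the 39 genes (5.13%, against 2.88% of all genes). For EGLN3 the log2 change in knock-in cells minus that in parental cells was -0.39, and for KDM3A it was 0.51. Neither call held in every alternative analysis: both were lost with a replicate block (adjusted p = 0.0653 and 0.0713) and on leaving out any of 10 of the 12 libraries for EGLN3 and any of 9 for KDM3A, 1 at a time. Among the genes of the further lists that the results name or that led this test, the same difference was called with a higher response in knock-in cells for SLC2A12 (1.37), CCNG2 (0.87), CITED2 (0.86), the nuclear receptor gene RORA (0.82) and the MYC antagonist gene MXI1 (0.74), and with a lower one for HKDC1 (-0.59) and TIGAR (-0.39). All of these values share the knock-in DMSO libraries, of which library 2 stood apart. Without knock-in DMSO library 2 each of them was called. The HKDC1 call was lost without parental DMSO library 1 or 3, any parental BYL719 library, knock-in DMSO library 3 or knock-in BYL719 library 2 or 3 (adjusted p = 0.0791 to 0.137). The TIGAR call was lost without library 2 or 3 of either parental group or knock-in BYL719 library 2 (adjusted p = 0.0524 to 0.0604), and the RORA call without parental DMSO library 3 (adjusted p = 0.0513).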

How the results depend on the processing

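Of the members called, 19 of 28 (lines in DMSO), 1 of 1 (BYL719 in parental cells), 8 of 13 (BYL719 in knock-in cells), 15 of 23 (lines under BYL719) and 0 of 2 (interaction) kept their call in every alternative analysis. Leaving out each library in turn gave 24 to 31, 1 to 7, 10 to 15, 18 to 29 and 0 to 5 members in the same order, and 5761 to 8386, 73 to 1973, 4237 to 6977, 3564 to 7439 and 243 to 1874 genes called. Of the 3 named PKM transcripts it gave 0 to 1 called for the lines under BYL719 and 0 to 0 for the other comparisons. The highest counts of members, and 1973 and 1874 genes, came without library 2 of knock-in DMSO. For BYL719 in parental cells, DESeq2 called 4 members and 893 genes, effective-length offsets 135 genes, and a fit of those 2 groups alone 10 members and 3486 genes, against 1 and 299. For BYL719 in knock-in cells the fit of 2 groups called 8 members and 2614 genes, against 13 and 5968. For the interaction, DESeq2 called 4 members and 1434 genes, effective-length offsets 1 and 275, and library totals, no low-count filter and protein-coding transcripts 1 member each, against 2 and 607. Why these counts moved was not tested. By estimated counts instead of TPM the shares of PKM-202, PKM-208 and PKM-224 were 88.7%, 5.56% and 2.08%. Signs turned for EPAS1 between the lines in DMSO without library 2 of knock-in DMSO (range over the libraries left out -0.10 to 0.0926), and with effective-length offsets for SLC16A1 with BYL719 in knock-in cells (0.0068) and BHLHE41 between the lines under BYL719 (0.021), neither of which was then called. Nothing in the labels says that the replicate numbers pair the libraries. Deviations from the group means of same-numbered libraries correlated at -0.071 to 0.08 across genes, mostly positive. Those of different-numbered libraries correlated at -0.077 to 0.073, mostly negative. Deviations cancel within a group, so the signs of these 2 sets are tied and are not separate observations. Such small values do not settle whether the libraries are paired. With a replicate block 27, 1, 13, 25 and 0 members were called.

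Intervals and tests cover these libraries only. Depth limits SLC2A3 most, which had few pairs, and pairs shared with pseudogenes or between transcripts rest on Salmon's division.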

Other observations

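The subunits of lactate dehydrogenase, and 2 further genes with several transcripts, give values that belong to no comparison above. The ratio of LDHA to LDHB on the TPM scale was 2.4, 2.52 and 2.64 in parental DMSO and 2.85, 2.1 and 2.98 in knock-in DMSO, where library 2 was the lowest of all 12 libraries. With BYL719 it was 2.41, 2.64 and 2.5 in parental and 2.87, 3.07 and 2.84 in knock-in cells. ALDOA came almost wholly from 1 transcript, ALDOA-221, with 94.2% of its TPM on average. VEGFA was spread over many: the protein-coding VEGFA-205 held 34.4% of its TPM on average, and 4 transcripts annotated as retained introns, VEGFA-215, VEGFA-214, VEGFA-216 and VEGFA-211, held 17.3%, 7.95%, 7.88% and 6.72%. Transcripts of that class took 2.68% to 3.35% of all pairs in the 12 libraries.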
